A study of Mus musculus with 6 samples.

Results

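The 10 genes described here are the transcription factors Zeb1, Zeb2, Snai1, Snai2, Twist1, Twist2 and Prrx1, which drive epithelial-mesenchymal transition (EMT), and the classical cadherins Cdh1, Cdh2 and Cdh11. They were taken by gene name from the 40166 genes of a bulk RNA sequencing count table, and each name matched 1 gene. Of the 10 genes, 8 passed the filter on low counts that left 15355 genes for testing, and the other 2, Cdh1 and Cdh11, stayed near 0 counts. The table covers 6 subcutaneous tumors grown in C57BL/6 mice from YUMM3.3, a BRAF-mutant mouse melanoma line. The mice were aged 8 to 10 weeks when the tumors were established. The 3 vehicle tumors came from mice given water, and the 3 RGS tumors from mice given Rigosertib (RGS), a small molecule that acts as a RAS mimetic, at 300 mg/kg by oral gavage on 5 days of each week. All were collected after 17 days of treatment, and the sex of these 6 hosts is not given. The tumors keep the numbers of their labels, 7 to 9 for vehicle and 10 to 12 for RGS. A single line was used, and the paper states that tumor, stromal and immune cells were sequenced together. Fewer cells of a type and less RNA per cell thus cannot be told apart in any value given here.

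EMT is the program by which epithelial cells loosen their junctions, lose polarity and become motile. The ZEB and SNAIL zinc finger proteins bind E-boxes, short DNA elements with the letters CANNTG, and repress epithelial genes, E-cadherin above all. TWIST proteins are basic helix-loop-helix factors that bind E-boxes as dimers, and PRRX1 is a homeobox factor of mesenchyme. Classical cadherins join neighboring cells through calcium-dependent contacts and anchor to actin through catenins. Cdh1 encodes E-cadherin, which melanocytes use to contact keratinocytes, Cdh2 encodes N-cadherin, often taken up by melanoma cells in its place, and Cdh11 encodes OB-cadherin of mesenchymal cells. In melanocytes, unlike in carcinoma, ZEB2 and SNAI2 belong to the differentiated state, and a shift toward ZEB1 and TWIST1 has been linked to dedifferentiation.

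The start regions of the 3 factors that rose, Snai1, Twist1 and Twist2, are shown because E-boxes are the elements that SNAIL, ZEB and TWIST proteins read. Each run is 5′ to 3′ on the gene's strand and covers 250 bases before and 50 after the transcript start, from RefSeq on build GRCm38.p6. All 3 genes lie on the plus strand, with windows at chr2:167537945-167538244 for Snai1, chr12:33957421-33957720 for Twist1 and chr1:91801211-91801510 for Twist2. Capitals mark matches to CANNTG, which reads the same on both strands.
Snai1: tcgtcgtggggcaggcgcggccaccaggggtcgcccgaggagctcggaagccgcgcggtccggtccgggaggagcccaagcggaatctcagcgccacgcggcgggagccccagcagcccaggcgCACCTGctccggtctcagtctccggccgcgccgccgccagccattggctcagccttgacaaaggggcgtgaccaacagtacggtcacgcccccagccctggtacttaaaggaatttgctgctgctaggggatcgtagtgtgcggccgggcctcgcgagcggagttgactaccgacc
Twist1: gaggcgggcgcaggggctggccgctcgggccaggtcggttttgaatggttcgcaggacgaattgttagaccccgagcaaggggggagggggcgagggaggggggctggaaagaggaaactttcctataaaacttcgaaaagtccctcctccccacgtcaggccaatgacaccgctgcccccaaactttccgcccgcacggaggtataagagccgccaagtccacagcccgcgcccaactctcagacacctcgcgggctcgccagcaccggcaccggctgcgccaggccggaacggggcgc
Twist2: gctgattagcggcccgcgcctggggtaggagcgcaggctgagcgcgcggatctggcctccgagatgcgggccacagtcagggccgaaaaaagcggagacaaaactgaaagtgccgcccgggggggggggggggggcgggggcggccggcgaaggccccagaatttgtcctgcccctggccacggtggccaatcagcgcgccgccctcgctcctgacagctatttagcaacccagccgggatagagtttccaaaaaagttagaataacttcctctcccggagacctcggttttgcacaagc
The table gave 8 windows for 5 of the 10 genes: Zeb2 with 4, and Snai1, Twist1, Twist2 and Prrx1 with 1 each. The Zeb2 windows at chr2:45113230-45113529 and chr2:45113204-45113503 share most of their bases, so the 8 windows are not all separate. A single match to CANNTG was found among these 8 windows, the CACCTG in the Snai1 window at position -126 from the start. Among all 32851 windows of the same length, 72.3% held CANNTG and 20.2% held CAGGTG or its reverse complement CACCTG, both of which are forms of CANNTG. The Twist1 and Twist2 windows held no match. A match here is a description of letters, and binding was not measured.

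Total counts ran from 13837932 to 32555494 per tumor, and the 3 RGS libraries were the shallowest. The share of counts from mitochondrial genome genes was 2.13 to 3.20% in vehicle and 5.60 to 8.22% in RGS tumors, and that from cytosolic ribosomal protein genes was 5.66 to 10.2% and 3.15 to 3.68%. Defining melanocyte markers had few or no counts: of 8 melanoma cell markers, all listed in the table, Mlana, Tyr and Dct had 0 counts in every tumor, Sox10 had 0 in the vehicle tumors and 0 to 18 in the RGS tumors, the 2 that could be tested, Mitf and Pmel, did not pass (edgeR adjusted p 0.440 and 0.325), and the summed level was 4.94 to 7.67 CPM (counts per 1000000) in vehicle and 4.52 to 10.5 CPM in RGS tumors. Of 12 leukocyte markers 3 were tested, of which Laptm5 and Cd53 were higher with RGS and Cd68 did not pass (edgeR adjusted p 0.293). The sum of all 12 was 245 to 313 CPM in vehicle and 1008 to 1095 CPM in RGS tumors. Most of it was Laptm5, with means of 176 CPM in vehicle and 900 CPM in RGS tumors. Ptprc, Adgre1, Cd3e and Cd8a were listed at 0 in every tumor. Csf1r, Lyz2, Mrc1, Itgam and Cd79a had 0 to 11 counts per tumor and were not tested. Whether these tumors lacked such transcripts could not be settled from the table. Of 11 fibroblast markers 1 was higher (Dcn) and 4 were lower, with sums of 408 to 603 and 294 to 323 CPM and Lum at 0. Of 15 keratinocyte markers 3 were higher (Ivl, Krt16 and Sfn), with sums of 4.52 to 7.45 and 40.3 to 61.1 CPM, although Krt5 and Krt14 had 0 to 2 counts and Krt1, Krt6a, Dsg3 and Dsc3 had 0. Of 8 endothelial markers 1 was higher (Cdh5), with sums of 2.84 to 4.35 and 8.36 to 15.2 CPM and Emcn at 0. Of 7 muscle markers 1 was higher (Des), with sums of 6.33 to 10.6 and 4.37 to 8.50 CPM and Ckm, Myh4 and Myod1 at 0. Ivl, Krt16 and Des had 0 counts in every vehicle tumor and 596, 66 and 34 counts over the RGS tumors. They passed the filter on low counts only through the RGS group. The part of other cell types, of RNA quality and of these shares in the results below was not tested. When counts were thinned to the smallest library, and when mitochondrial and ribosomal protein genes were left out before scaling, the same 5 of the 10 genes passed the test.

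The question was how the EMT factors and the cadherins differed between RGS and vehicle tumors. With RGS, Snai1, Twist1, Twist2 and Cdh2 were higher, Zeb2 was lower, and Zeb1, Snai2 and Prrx1 did not pass the test. The largest difference was that of Twist2, at 6.14-fold. Tests were made with edgeR's quasi-likelihood F test with Benjamini-Hochberg adjustment over all 15355 genes and a threshold of 0.05, and CPM values use library totals scaled by TMM. A share of 32.8% of all tested genes passed, 16.3% as higher and 16.5% as lower, against 5 of these 8 genes, 4 as higher and 1 as lower. The share of higher genes among all called genes was 49.7%, and it was 37.2% with library size only in place of TMM, where the 5 called of these genes were 3 higher and 2 lower, with Zeb1 past the threshold and Twist1 not. The values of 7 of the 8 genes did not overlap between the groups, which held for 45.8% of all tested genes. The median log2 fold change was 0.40 for the 8 genes and -0.05 for all genes tested. Because these counts cover only the genes that passed the filter and so many genes of the table differed, they are given as a description.

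**Figure D1:**
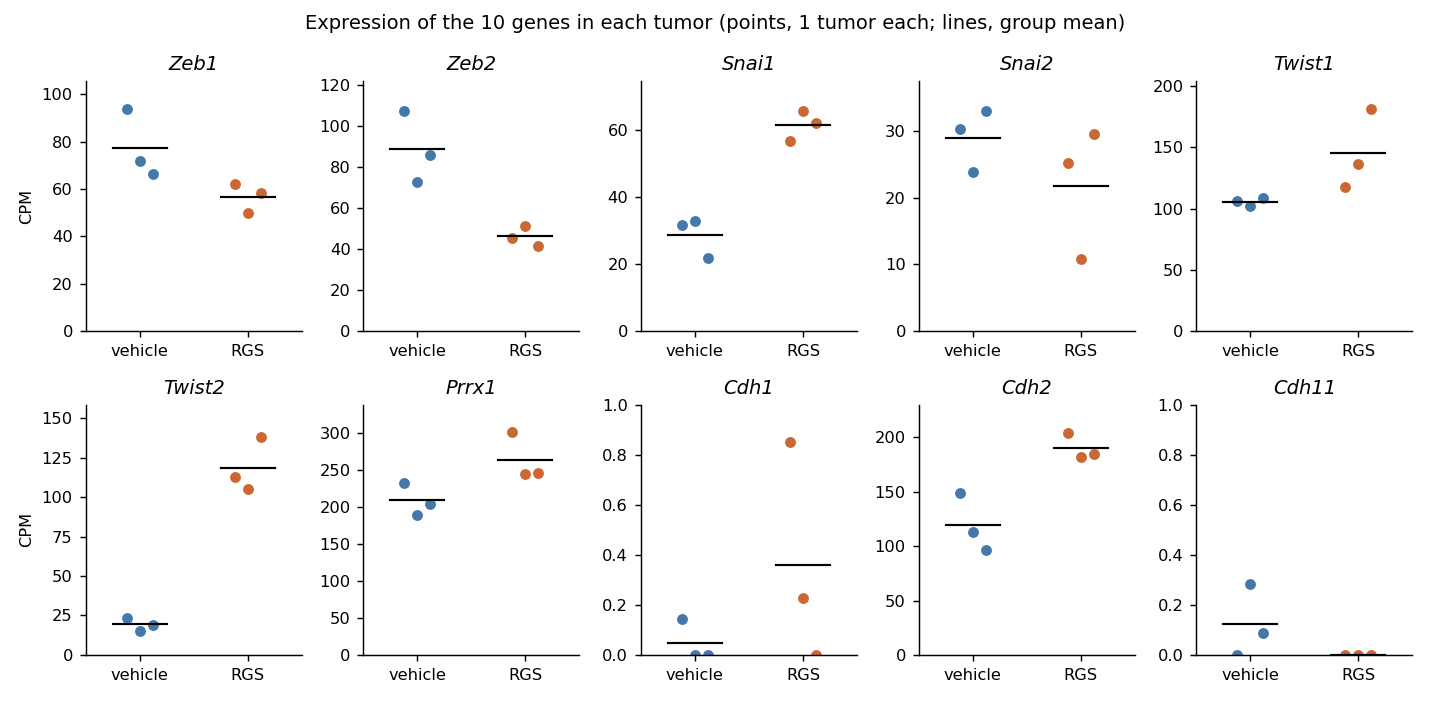
Expression of the 10 genes in CPM on linear axes that start at 0, with 1 point per tumor and a line at the group mean (3 vehicle tumors on the left of each panel, 3 RGS tumors on the right). The RGS points of Twist2, 105 to 138 CPM, lie far above the vehicle points, 15.2 to 23.6 CPM, and Cdh1 and Cdh11 stay under 1 CPM in every tumor.

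Of the ZEB repressors, Zeb2 was lower with RGS and Zeb1 had a smaller difference in the same direction that did not pass the test. Zeb2 (ENSMUSG00000026872.17, chromosome 2, 44983632 to 45117395, minus strand, build mm10) measured 107, 72.4 and 85.9 CPM in vehicle tumors 7, 8 and 9 and 45.2, 51.3 and 41.7 CPM in RGS tumors 10, 11 and 12. Every RGS tumor lay below every vehicle tumor, and the spread within the vehicle group was the wider one. The means were 88.6 ± 17.7 CPM and 46.1 ± 4.88 CPM (SD, n = 3 each), a log2 fold change of -0.94 (SE 0.18) with an edgeR adjusted p of 5.87e-04, or 1.92-fold lower. The call held in 16 of 16 alternative settings. Zeb1 (ENSMUSG00000024238.14) measured 93.8, 71.7 and 66.2 CPM in vehicle tumors and 62.2, 49.8 and 58.3 CPM in RGS tumors. Its groups did not overlap, but vehicle tumor 9 and RGS tumor 10 were only a few CPM apart. From 77.2 ± 14.6 to 56.8 ± 6.32 CPM (SD, n = 3 each), its log2 fold change was -0.44 (SE 0.18) with an edgeR adjusted p of 0.0661. Without vehicle tumor 9 it was -0.54 with an edgeR adjusted p of 0.0427, which is past the threshold, and without vehicle tumor 7 it was -0.28 with an edgeR adjusted p of 0.226. Over the 16 alternative settings the edgeR, DESeq2 and limma adjusted p of Zeb1 ran from 0.0233 to 0.226.

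In the SNAIL family Snai1 was higher in RGS tumors, and Snai2 did not pass the test. Snai1 encodes the founding repressor of the E-cadherin gene, and Snai2 encodes SLUG, a neural crest factor. Snai1 (ENSMUSG00000042821.7, chromosome 2, 167538195 to 167542814, plus strand) measured 31.6, 32.9 and 21.7 CPM in vehicle tumors 7, 8 and 9 and 56.7, 65.7 and 62.1 CPM in RGS tumors 10, 11 and 12. The lowest RGS tumor was well above the highest vehicle tumor. The means were 28.8 ± 6.14 and 61.5 ± 4.51 CPM (SD, n = 3 each), a log2 fold change of 1.09 (SE 0.20), or 2.14-fold higher, with an edgeR adjusted p of 2.86e-04. This call also held in 16 of 16 alternative settings. Snai2 (ENSMUSG00000022676.7, chromosome 16, 14705852 to 14709385, plus strand) measured 30.3, 23.8 and 33.0 CPM in vehicle tumors and 25.2, 10.8 and 29.5 CPM in RGS tumors. RGS tumor 11, with 143 counts, stood below the others, while the other two RGS tumors lay within the vehicle range. The log2 fold change of Snai2 was -0.41 (SE 0.29) with an edgeR adjusted p of 0.298, and it ranged from -0.70 to -0.10 when each tumor was left out in turn.

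Both TWIST genes were higher with RGS, Twist2 by far the more. Twist2 (ENSMUSG00000007805.4, chromosome 1, 91801461 to 91848028, plus strand), also called Dermo1 for its place in dermal mesenchyme, measured 23.6, 15.2 and 19.1 CPM in vehicle tumors 7, 8 and 9 and 113, 105 and 138 CPM in RGS tumors 10, 11 and 12. All RGS tumors were several times above all vehicle tumors. The means were 19.3 ± 4.16 and 119 ± 17.1 CPM (SD, n = 3 each), with a log2 fold change of 2.62 (SE 0.20) and an edgeR adjusted p of 1.45e-08. The call held in 16 of 16 alternative settings, which gave log2 fold changes between 2.47 and 2.83. Twist1 (ENSMUSG00000035799.6, chromosome 12, 33957671 to 33959829, plus strand), a factor of neural crest and cranial mesenchyme, measured 106, 102 and 109 CPM in vehicle tumors and 118, 137 and 182 CPM in RGS tumors. The vehicle tumors were close together, the RGS tumors spread widely with tumor 12 the highest, and the groups did not overlap. The means were 106 ± 3.48 and 145 ± 32.7 CPM (SD, n = 3 each), 1.38-fold higher with a log2 fold change of 0.46 (SE 0.17) and an edgeR adjusted p of 0.0449. The Twist1 call rested on single tumors: its edgeR adjusted p was 0.133 without vehicle tumor 8, 0.0569 without vehicle tumor 9, 0.0854 without RGS tumor 11 and 0.323 without RGS tumor 12, where the log2 fold change was 0.25. It was also lost with library size scaling (log2 fold change 0.31, edgeR adjusted p 0.169) and with upper-quartile scaling (0.42, adjusted p 0.0629).

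Annotated noncoding genes overlap some of these loci, and the strand setting of the counting is not given in the sources used here. Inside Twist2 lies Gm29101, a sense intronic gene, which had 3, 0 and 1 counts in vehicle tumors 7, 8 and 9 and 49, 54 and 108 counts in RGS tumors 10, 11 and 12 (edgeR adjusted p 1.11e-04). It was higher where Twist2 was higher, and its counts cannot be told apart from unspliced Twist2 RNA. The antisense gene Gm29100 had 54, 36 and 54 counts in vehicle tumors and 11, 23 and 34 in RGS tumors, far below the 428 to 2386 counts of Twist2 itself. Zeb2os, antisense to Zeb2, had 0 to 11 counts. Reads were 150 bases long, and the longest identical run between paralogous transcripts was 35 bases for Zeb1 and Zeb2, 23 for Snai1 and Snai2 and 23 for Twist1 and Twist2.

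Prrx1 did not pass the test, although its values were separate between the groups. Prrx1 (ENSMUSG00000026586.16, chromosome 1, 163245119 to 163313710, minus strand) measured 233, 189 and 205 CPM in vehicle tumors 7, 8 and 9 and 302, 245 and 246 CPM in RGS tumors 10, 11 and 12. Vehicle tumor 7 was near the lower RGS tumors, and RGS tumor 10 was the highest. The means were 209 ± 22.0 and 264 ± 32.7 CPM (SD, n = 3 each), a log2 fold change of 0.34 (SE 0.16) with an edgeR adjusted p of 0.102. Without vehicle tumor 7 the log2 fold change was 0.42 with an edgeR adjusted p of 0.0194, past the threshold, and limma voom with quality weights gave 0.42 with an adjusted p of 0.00482. With library size only it was 0.20 (edgeR adjusted p 0.380), and without RGS tumor 10 it was 0.23 (edgeR adjusted p 0.325).

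Among the cadherins, N-cadherin was higher with RGS, and E-cadherin and OB-cadherin were barely detected in either group. Cdh2 (ENSMUSG00000024304.14) measured 149, 113 and 96.3 CPM in vehicle tumors 7, 8 and 9 and 204, 182 and 185 CPM in RGS tumors 10, 11 and 12. Every RGS tumor was above every vehicle tumor, with less spread in the RGS group. The means were 119 ± 27.0 and 190 ± 11.9 CPM (SD, n = 3 each), 1.59-fold higher with a log2 fold change of 0.67 (SE 0.17) and an edgeR adjusted p of 0.00527. The call held in 16 of 16 alternative settings. Cdh1 (ENSMUSG00000000303.12, chromosome 8, 106603351 to 106670246, plus strand) had 5, 0 and 0 counts in vehicle tumors and 18, 3 and 0 counts in RGS tumors. Cdh11 (ENSMUSG00000031673.6, chromosome 8, 102632095 to 102785642, minus strand) had 0, 8 and 2 counts in vehicle tumors and 0 in all 3 RGS tumors, where a count of 0 allows up to 0.0591 CPM (3 counts over the group, counting error only). A difference in Cdh1 or Cdh11 was not detectable at this depth. With no filter on low counts the edgeR adjusted p was 0.445 for Cdh1 and 0.293 for Cdh11.

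**Figure D2:**
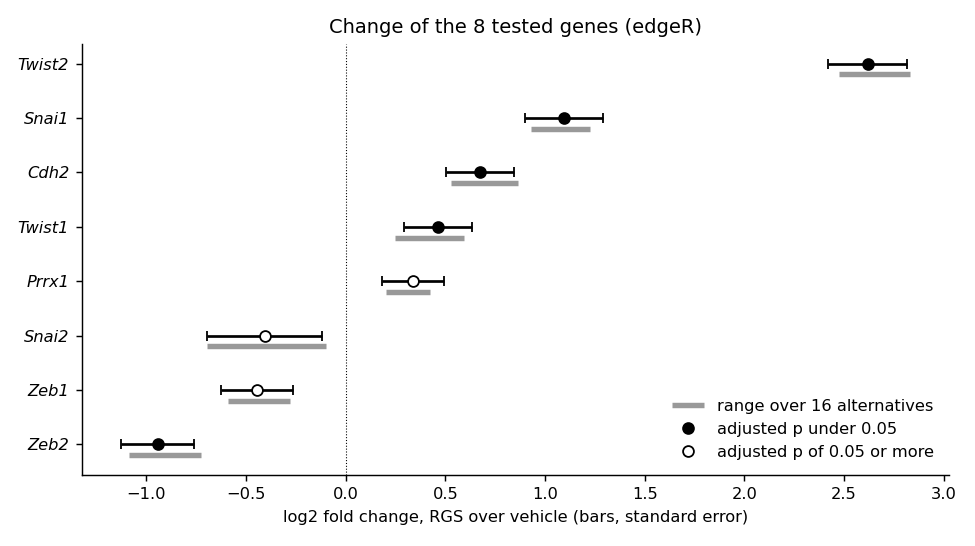
Log2 fold change of RGS over vehicle for the 8 tested genes from edgeR, with bars of 1 standard error, filled points for an adjusted p under 0.05 and a gray bar for the range over 16 alternative settings. Twist2 stands at 2.62 and Snai1 at 1.09, Zeb2 is lower at -0.94, and the gray bars of all 8 genes stay on 1 side of 0.

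Per gene length, Twist1 was the highest of the 10 genes in both groups, and the order below it changed with RGS. This order depends on the deposited gene lengths. By CPM, without gene length, Prrx1 had the highest mean in both groups, at 209 CPM in vehicle and 264 CPM in RGS tumors. In RPKM (CPM per 1000 bases of gene length), the vehicle means were 64.9 for Twist1, 18.9 for Prrx1, 17.7 for Snai1, 14.8 for Cdh2, 14.4 for Snai2, 7.52 for Zeb1, 6.08 for Twist2 and 4.44 for Zeb2. The ranges of neighbors overlapped from Prrx1 through Snai2 and again from Zeb1 through Zeb2, so that only the steps below Twist1 and below Snai2, and the step from Zeb2 down to Cdh11 and Cdh1 near 0, exceeded the spread between tumors. In RGS tumors the means were 89.3 RPKM for Twist1, 37.9 for Snai1, 37.4 for Twist2, 23.9 for Prrx1, 23.6 for Cdh2, 10.8 for Snai2, 5.53 for Zeb1 and 2.31 for Zeb2. Here Snai1 overlapped Twist2, Prrx1 overlapped Cdh2 and Snai2 overlapped Zeb1. Twist2 moved from the seventh place to the third, and Zeb2 was eighth in both groups. Among all tested genes, the mean RPKM of Twist2 stood at percentile 59.9 in vehicle and 90.6 in RGS tumors, that of Snai1 at 81.6 and 90.7, and that of Zeb2 at 53.2 and 43.2.

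**Figure D3:**
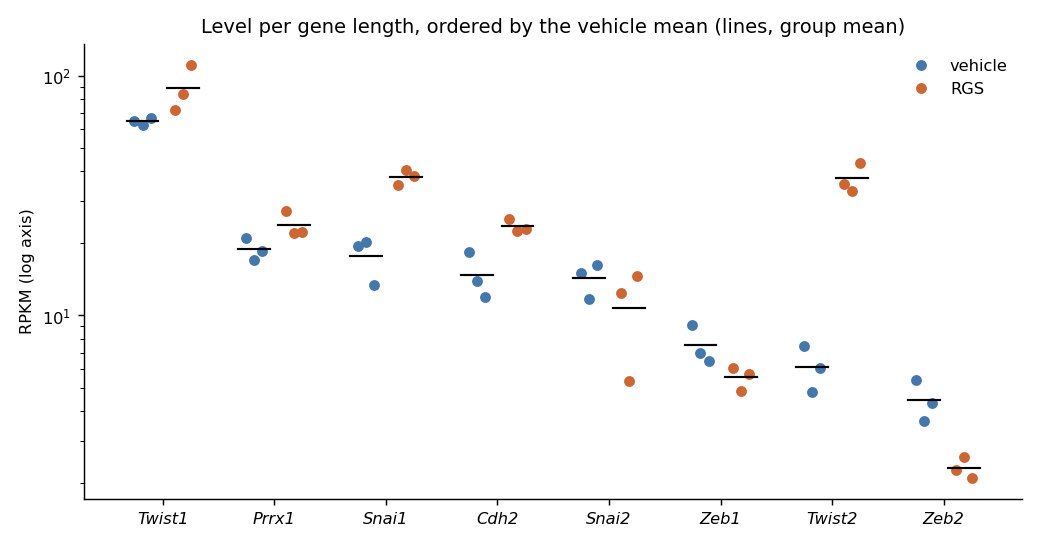
Level of the 8 tested genes in RPKM on a log axis, with genes ordered by the vehicle mean, 1 point per tumor (vehicle left, RGS right of each gene) and lines at group means. Twist1 is highest in both groups, and Twist2 passes from 6.08 to 37.4 RPKM, level with Snai1.

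Within each family the balance between paralogs was described inside each tumor, where library scaling cancels. Twist2 made up 10.2, 7.12 and 8.27% of the summed RPKM of Twist1 and Twist2 in vehicle tumors 7, 8 and 9 and 32.9, 28.3 and 28.1% in RGS tumors 10, 11 and 12. The groups lay far apart, with means of 8.54 ± 1.57% and 29.8 ± 2.75% (SD, n = 3 each). Snai1 made up 56.6, 63.3 and 45.1% of the SNAIL pair in vehicle tumors and 73.7, 88.4 and 72.4% in RGS tumors, again without overlap. Zeb2 made up 37.1, 34.2 and 40.0% of the ZEB pair in vehicle tumors and 27.2, 34.7 and 26.9% in RGS tumors. These shares depend on the deposited gene lengths, and by CPM Zeb2 lay above Zeb1 in every vehicle tumor. RGS tumor 11 fell inside the vehicle range for the ZEB pair. An exact two-sided permutation test of the log2 ratio, which with 3 against 3 tumors cannot go below 0.1, gave p = 0.1 for Twist2 to Twist1 (difference 2.18), p = 0.1 for Snai2 to Snai1 (difference -1.63) and p = 0.2 for Zeb2 to Zeb1 (difference -0.47). Adjusted over 5 pairs, the values of the exact permutation test were 0.167, 0.167 and 0.25, so none passed. For Cdh2 to Cdh1 the difference was 0.12 (exact permutation p = 0.7, adjusted 0.7) and for Cdh11 to Cdh2 it was -0.87 (exact permutation p = 0.1, adjusted 0.167), and both rest on the 0.1 RPKM added to values near 0. The summed RPKM of the 7 transcription factors was 143, 127 and 132 in vehicle tumors and 191, 192 and 238 in RGS tumors, and Twist1 was the largest single part of it in each tumor.

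**Figure D4:**
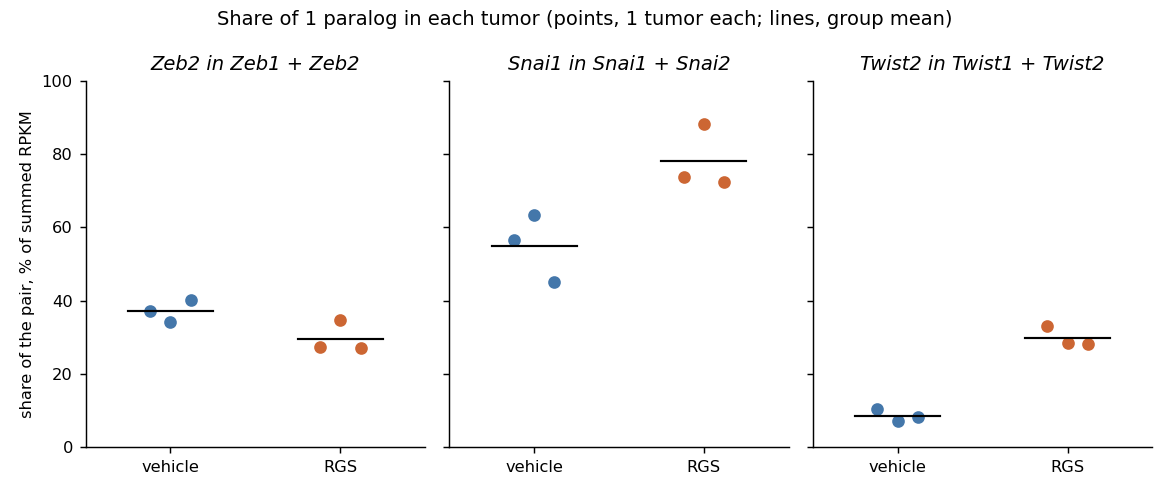
Share of 1 paralog in the summed RPKM of its pair, in percent from 0 to 100, with 1 point per tumor and a line at the group mean. The Twist2 share is 7.12 to 10.2% in vehicle and 28.1 to 32.9% in RGS tumors, the Snai1 share does not overlap between the groups, and the Zeb2 share does.

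The genes listed as other EMT factors, a list that also holds Id1, Id2, Id3 and Id4, were mostly higher with RGS. To be set beside this list and those below, 32.8% of all tested genes passed, 16.3% as higher and 16.5% as lower. Of the 18 genes in this list 15 were tested, with a median log2 fold change of 0.86 against -0.05 for all tested genes. Among these 15, 4 did not pass, none was lower and 11 were higher. Id4 and Id3, which encode inhibitors of basic helix-loop-helix dimers, were among them: Id4 went from 11.6 ± 1.74 to 98.1 ± 3.46 CPM, both means of 3 tumors with SD (log2 fold change 3.08, SE 0.19, edgeR adjusted p 1.04e-09) and Id3 from 47.2 ± 11.3 to 173 ± 11.1 CPM (1.88, SE 0.18, edgeR adjusted p 3.41e-07). ID proteins bind the partners of TWIST factors and keep them from DNA. The 11 higher genes thus include such inhibitors and are not all drivers of EMT. The forkhead gene Foxq1 rose by a log2 fold change of 2.56 (SE 0.81) from only 0.903 CPM, and Zfp703, a zinc finger corepressor gene, by 1.88 (SE 0.19). Id1, Id2, Sox4, Sox9, Tcf3 and Tcf4 were also among those that rose, the last 2 encoding E proteins that pair with TWIST. Lower genes numbered 0 in the main edgeR setting and in limma voom and 1 in DESeq2. In edgeR they also numbered 1 with library size only, upper-quartile scaling, edgeR's own filter on low counts and thinned counts. The same number was found without RGS tumor 11. In the main setting 1 gene, Foxc1, was lower at an unadjusted edgeR p under 0.05 (log2 fold change -0.76, adjusted p 0.0522). Without RGS tumor 12 the count of higher genes was 7.

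Factors that hold epithelial identity were largely silent. Only 4 of 14 passed the filter, with Klf5 higher (47.7 ± 1.66 to 89.3 ± 5.93 CPM, means and SDs of 3 tumors, a log2 fold change of 0.90, edgeR adjusted p 2.92e-04) and Klf4, a factor shared by epithelia and stroma, lower (283 ± 31.3 to 182 ± 4.61 CPM, log2 fold change -0.64, edgeR adjusted p 0.00294). The other two, Grhl1 and Esrp1, had 14 and 24 counts over all vehicle tumors and 0 in RGS tumors and did not pass. The list's median log2 fold change was -2.75 as fitted, and -1.05 with these 2 genes held at the bound set by 3 counts over the group. Of 30 epithelial junction and keratin genes 16 were tested, 3 were higher and 1 was lower, with a median log2 fold change of -0.0038. The lower gene was Tjp1, which encodes the tight junction scaffold ZO-1 (log2 fold change -0.47, edgeR adjusted p 0.0323). The claudin genes Cldn3 and Cldn4 passed as higher, with 0 counts in every vehicle tumor and 24 and 57 counts over the RGS tumors, at least 13.6-fold and 32.3-fold higher against 3 counts over the vehicle group. Leaving out vehicle tumor 7 or vehicle tumor 8 left 2 called genes in this list, both higher, limma voom gave 3 higher and 3 lower, and at an unadjusted p under 0.05 in edgeR 3 were higher and 4 lower.

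Of 15 other cadherins 5 were tested, 3 were higher and none was lower, with a median log2 fold change of 1.50. Cdh6, K-cadherin of kidney and neural crest, went from 14.3 ± 3.70 to 146 ± 6.01 CPM (SD, n = 3 each), a log2 fold change of 3.34 (SE 0.20) with an edgeR adjusted p of 6.94e-10. All 3 RGS tumors were far above the vehicle tumors. Cdh5, the cadherin of endothelium, rose by a log2 fold change of 3.47 (SE 0.68) from 0.555 to 6.20 CPM, and Cdh24 by 1.50 (SE 0.45). The count of lower genes was 0 in edgeR, DESeq2 and limma voom, and 0 at an unadjusted p under 0.05. Cdh5 is part of the endothelial marker sums given above, and the other 4 endothelial markers that were tested, Pecam1, Esam, Vwf and Tek, did not pass (edgeR adjusted p 0.351, 0.164, 0.723 and 0.431). Of 13 catenins and junction adaptors 11 were tested, 2 were higher and 1 was lower, with a median of 0.27. Ctnnd1, encoding p120-catenin that holds cadherins at the membrane, rose from 25.0 ± 3.47 to 79.3 ± 5.50 CPM (log2 fold change 1.67, SE 0.18, edgeR adjusted p 1.37e-06). Ctnnb1, encoding beta-catenin, rose by 0.47 (SE 0.16). Vcl, encoding vinculin, fell by 1.09 on the log2 scale (SE 0.27, edgeR adjusted p 0.00456). Its tumors spread widely, at 149 ± 58.6 CPM in vehicle and 70.1 ± 30.7 CPM in RGS (SD, n = 3 each). With DESeq2, 2 genes of this list were higher and 0 lower, so the Vcl call was lost. The count in this list was 5 without vehicle tumor 7, 4 of them higher.

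Mesenchymal genes moved in both directions, 5 of 16 tested genes higher, 3 lower and 8 not past the test, with a median log2 fold change of -0.02. Among the higher genes were those of matrix proteins and their receptor: Fn1, fibronectin, went from 2787 ± 995 to 5899 ± 747 CPM with SDs over 3 tumors (a log2 fold change of 1.08, edgeR adjusted p 3.80e-04), Itga5, the fibronectin receptor subunit, rose by 1.33 and Tnc by 1.18. Sparc also passed, at 0.45. The intermediate filament gene Vim, a usual marker of EMT, was lower, at 6899 ± 511 and 3733 ± 166 CPM (log2 fold change -0.89, SE 0.14, edgeR adjusted p 1.01e-04). Acta2, smooth muscle actin, fell by 2.28 on the log2 scale and Fstl1 by 0.51. Of the 11 fibroblast markers given above, 4 were lower, Dcn was higher (log2 fold change 3.24, edgeR adjusted p 6.23e-05) and the other 5 that were tested did not pass.

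In the TGF-beta pathway, a main inducer of EMT factors, 11 of 12 genes were tested, 2 were higher and 5 lower, with a median log2 fold change of -0.32. Smad3, a transducer that activates Snai1 in other systems, went from 60.6 ± 14.0 to 152 ± 24.6 CPM with SDs over 3 tumors (a log2 fold change of 1.32, edgeR adjusted p 2.57e-05), and the receptor gene Tgfbr2 rose by 0.82. Among the ligands, Bmp4 went from 18.0 ± 1.72 to 2.27 ± 1.14 CPM (log2 fold change -2.96, edgeR adjusted p 9.18e-06) and Tgfb2 fell by 2.04 on the log2 scale. The coreceptor gene Tgfbr3 fell by 1.30, Smad2 by 0.72 and Smad4 by 0.54 on the same scale. Tgfb1 had a log2 fold change of 0.27 with an edgeR adjusted p of 0.212. Of 14 melanocyte and melanoma state genes 6 were tested, 1 was higher, 1 was lower and 4 did not pass. Their median log2 fold change was -0.87. The 4 that did not pass had log2 fold changes from -2.29 to 0.45, with standard errors of 0.41 to 1.69. Ngfr, a neural crest receptor, was higher (6.50 ± 0.396 to 18.8 ± 5.24 CPM, means and SDs of 3 tumors, a log2 fold change of 1.53, edgeR adjusted p 4.79e-04), and Axl, a receptor kinase of the dedifferentiated state, was lower (1325 ± 281 to 804 ± 94.9 CPM, log2 fold change -0.72, edgeR adjusted p 0.00287).

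**Figure D5:**
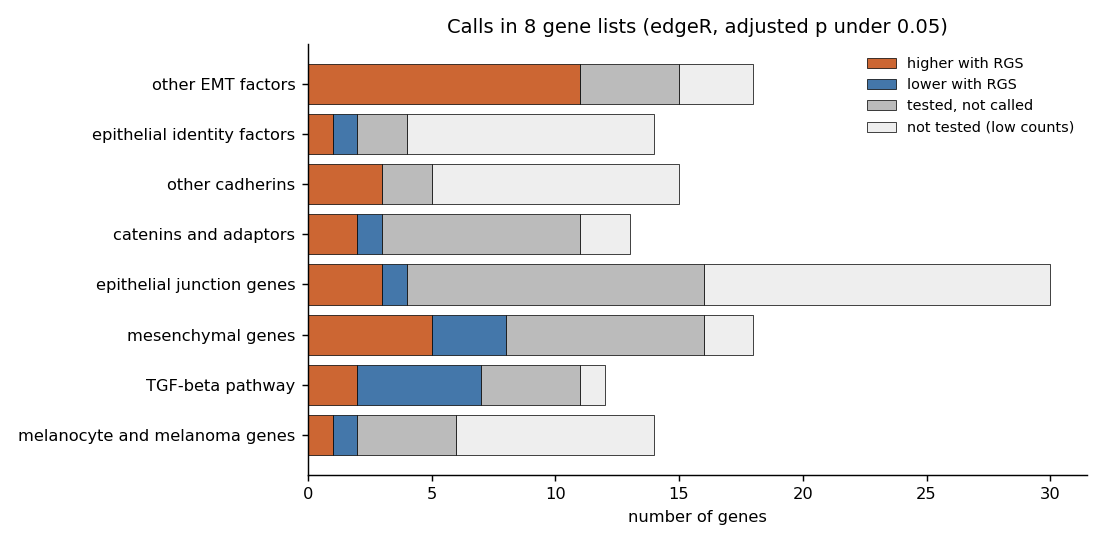
Number of genes in each of 8 lists that were higher with RGS, lower with RGS, tested but not past an adjusted p of 0.05 in edgeR, or not tested for low counts. The other EMT factors, a list that also holds Id1, Id2, Id3 and Id4, have 11 higher and 0 lower genes. The TGF-beta pathway holds 2 higher and 5 lower.

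Some genes outside these lists had nearly the same pattern over the 6 tumors as Twist2 or Zeb2, measured by the mean absolute difference of centered log2 CPM among 12238 genes. Nearest to Twist2 were Prkcb at 0.0906, AI606181 at 0.121 and Clu at 0.123, and 74 genes lay within 0.3. Prkcb, a protein kinase C gene, measured 28.9, 18.8 and 20.1 CPM in vehicle tumors 7, 8 and 9 and 128, 137 and 155 CPM in RGS tumors 10, 11 and 12, much as Twist2 did. Nearest to Zeb2 were Gpm6b at 0.0540, Ucp2 at 0.0656 and Rnf213 at 0.0765, and 1572 genes lay within 0.3. By this measure, which also depends on the size of the difference between the groups, more genes lay near Zeb2 than near Twist2. Gpm6b, a membrane glycoprotein gene, measured 77.9, 62.1 and 70.0 CPM in vehicle tumors and 37.0, 42.5 and 34.8 CPM in RGS tumors, while Ucp2 did not pass the test (edgeR adjusted p 0.366).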

How the data were processed

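Whole tumors were sequenced in bulk, 3 per group. The authors deposited 1 table of raw gene counts; per the labels and the submitters' processing notes, reads were trimmed with cutadapt 1.18, checked with FastQC 0.11.7, aligned with STAR 2.7.1a to mm10 and counted with featureCounts 1.6.4. The strand setting is not given in the sources used here. The deposited gene lengths, in bases, served only for RPKM. Of 40166 gene identifiers 40013 are in GENCODE M21 and 39178 have the same start and end there. Genes with a median count of at least 5 in either group were kept and tested with edgeR 4.0.16 (quasi-likelihood F test, TMM, R 4.3.3), with treatment as the only term, Benjamini-Hochberg adjustment and a threshold of 0.05. Standard errors were derived from F, as the size of a log2 fold change over the root of F. Ratios of paralogs used log2(RPKM + 0.1) and an exact permutation test. DESeq2 1.42.0 and limma 3.58.1 were alternatives, beside other scalings, filters, thinning and leaving out each tumor.

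The 10 genes and the lists were chosen with earlier results of these data known. Named were all 10 genes, from each pathway list up to 4 genes per direction past the threshold with at least 1 CPM over all tumors, and the 3 genes nearest in pattern to the called gene with the smallest adjusted p in each direction. Other list genes that are named (Id1, Id2, Sox4, Sox9, Tcf3, Tcf4, Grhl1, Esrp1, Cldn3, Cldn4, Foxc1, Sparc, Smad4 and Tgfb1), and the genes that overlap a locus, fell outside that rule and were chosen after their values were seen. Replicates of a group differed by more than counting noise (chi-square per degree of freedom of 19.7 to 132 between pairs). That the tumors came from separate mice is not stated for each library, so p-values measure the spread between these samples. Where 3 counts mark a floor, it covers counting error only. A few list genes that the rule names are counted but not reported here.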

Additional observations from a re-analysis of the deposited data

How the results depend on the processing

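No paired analysis was possible because the vehicle tumors are numbered 7 to 9 and the RGS tumors 10 to 12, so the groups share no number. Among all genes, 5036 passed (2503 higher, 2533 lower) and 2618 when the log2 fold change also had to be 1 or more in size (1168 higher, 1450 lower), which left 2 of the 10 genes, Snai1 and Twist2, in place of 5. With library size only, 5022 genes passed, 1870 higher and 3152 lower, and the median log2 fold change of all genes moved from -0.05 to -0.19; relative to that median Twist1 was at 0.51 and 0.50 and Zeb1 at -0.40 and -0.40. The log2 fold change of Zeb1 passed the threshold with library size only (-0.59), upper-quartile factors (-0.48) and limma voom (-0.37), that of Twist1 did not with library size only (0.31) and upper-quartile factors (0.42), and that of Prrx1 did with limma voom (0.42). When 1 tumor at a time was left out, the values ran from -0.54 to -0.28 for Zeb1, from 0.25 to 0.59 for Twist1 and from 0.23 to 0.42 for Prrx1, 3493 to 5249 genes passed, and 4 to 6 of the 10 genes passed. The difference between the groups (RGS minus vehicle) in the log2 ratio of Cdh2 to Cdh1 was -0.53 with CPM in place of RPKM. With 1 tumor left out this difference ranged from -0.21 to 0.48, and it was negative without RGS tumor 12. The same difference for Cdh11 to Cdh2 was -1.64 with CPM. In CPM the added 0.1 weighs less against Cdh2 and Cdh11 than in RPKM. Zeb2, Snai1, Twist2 and Cdh2 kept their call and direction in 16 of 16 alternatives. Depth limits Cdh1 and Cdh11.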
